A study of Homo sapiens with 4 samples.

Results

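The ELR CXC chemokines CXCL1, CXCL2, CXCL3, CXCL5, CXCL6 and CXCL8 were examined with the chemokines CXCL16, CCL2, CCL20 and CCL26 in human triple-negative breast cancer cells treated with mebendazole (MBZ). These 10 genes of the 58735 in the count table were selected by symbol, with their fold changes in these data already known. Their values are therefore a description, and no p-value is given for them.

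Chemokines are small secreted proteins that draw leukocytes along a gradient. The ELR CXC chemokines carry a glutamate-leucine-arginine motif and act on CXCR1 and CXCR2, the receptors by which neutrophils follow them; several are also angiogenic. Their genes lie together on chromosome 4, are transcribed under NF-kB with help from AP-1 and C/EBP factors, and give short-lived messages. Breast cancer cells can secrete these proteins themselves.

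RNA was sequenced from MDA-MB-231 and SUM159 cells, both established human lines of triple-negative breast cancer. Each line was kept for 72 h with DMSO, the vehicle, or with 1 μM MBZ, a benzimidazole antiparasitic drug that binds tubulin. There was 1 library for each of the 4 conditions, so no difference has a replicate check and no test was possible within a line. The lines were grown in different media, with insulin and hydrocortisone for SUM159, so line and medium cannot be told apart. No introduced allele or transgene is named for the sequenced cells in the sources used here.

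The libraries held between 17143139 and 24897586 counts, and 3 counts corresponded to between 0.120 and 0.175 CPM, the read count scaled to a fixed library size. More genes had at least 1 count with MBZ than with DMSO, 24416 against 22278 in MDA-MB-231 and 27239 against 23015 in SUM159. The mesenchymal marker VIM had 47253 and 20703 counts in MDA-MB-231 and 54409 and 41720 in SUM159, DMSO first, and was at least 1.5-fold lower with MBZ in both (in MDA-MB-231 alone with scaling by total counts). Of the epithelial and basal markers, VIM included, 3 were higher and 4 lower of 8 compared in MDA-MB-231 (3 and 2 with scaling by total counts), among them KRT17 higher (10 and 119 counts), and 1 was higher and 3 lower of 7 compared in SUM159 (1 and 1), among them KRT17 lower (227 and 156), though not by 1.5-fold with total-count scaling. The hormone receptor genes PGR and ESR1 had 0 and at most 18, and ERBB2 had from 1216 to 1996. Of the leukocyte markers, PTPRC had 8 (DMSO) and 23 (MBZ) counts in MDA-MB-231 and 216 and 60 in SUM159, CD14 had 53 and 40 and then 477 and 110, and CD3E was at 0 or 1. Of the 5 compared in SUM159, 3 were lower and 1 was higher with MBZ, and of the 4 compared in MDA-MB-231, 2 were higher and 0 lower. FCGR3B, lower in SUM159, passed the minimum only through the DMSO library and PTPRC in MDA-MB-231 only through the MBZ library, so the filter fixed their direction there. The fibroblast markers COL1A1 and PDGFRB were at least 1.5-fold lower with MBZ in both lines, with PDGFRB at 138 and 74 counts in MDA-MB-231 and 2235 and 281 in SUM159 (with total-count scaling 1 of the 2 was so in MDA-MB-231). The part of these markers in the chemokine values was not tested.

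Promoter sequences are shown for the ELR genes, which share a short motif close to the transcription start whether or not they had reads, and for CCL20, which lacks it. RefSeq promoters of the build GRCh38.p14 were found for 8 of the 10 genes. The printed 90 bases run 5′ to 3′ on the gene's own strand from base −140 to base −51, counted from the RefSeq start, which need not be the GENCODE gene boundary given further on and in CCL20 lies kilobases inside it. Capitals mark the kB sequence GGAATTTCC, a site type bound by NF-kB, and in CCL20 the overlapping matches to a looser kB sequence, GGG and CC with any 5 bases between them. The stretches lie at chr4:73740429-73740518 (plus strand) for CXCL8, chr4:73869253-73869342 (plus) for CXCL1, chr4:74099246-74099335 (minus) for CXCL2, chr4:74038740-74038829 (minus) for CXCL3, chr4:73998728-73998817 (minus) for CXCL5, chr4:73836538-73836627 (plus) for CXCL6 and chr2:227813702-227813791 (plus) for CCL20.
CXCL8: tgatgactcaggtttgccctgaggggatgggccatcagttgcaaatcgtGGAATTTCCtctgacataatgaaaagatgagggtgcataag
CXCL1: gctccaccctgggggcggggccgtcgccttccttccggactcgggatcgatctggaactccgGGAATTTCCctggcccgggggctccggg
CXCL2: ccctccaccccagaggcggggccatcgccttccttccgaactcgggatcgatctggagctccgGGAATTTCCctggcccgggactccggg
CXCL3: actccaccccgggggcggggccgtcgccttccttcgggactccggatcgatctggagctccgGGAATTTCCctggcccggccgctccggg
CXCL5: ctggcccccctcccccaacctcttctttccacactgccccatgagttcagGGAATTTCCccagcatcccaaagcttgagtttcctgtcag
CXCL6: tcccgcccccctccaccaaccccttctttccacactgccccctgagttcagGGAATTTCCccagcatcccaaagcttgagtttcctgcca
CCL20: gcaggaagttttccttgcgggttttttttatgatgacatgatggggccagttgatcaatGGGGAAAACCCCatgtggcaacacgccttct

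The sequence GGAATTTCC was found, on both strands searched over 250 bases before the start, in 6 of the 8 promoters. Those 6 belong to the ELR genes, and the match began at base −91 in CXCL8, −90 in CXCL5, −89 in CXCL6, −78 in CXCL1 and CXCL3 and −77 in CXCL2. It was present in 145 of all 35116 promoters (0.413%). The looser kB sequence was present in 7 of the 8, but also in 54.4% of all promoters, and it overlaps the stricter match in CXCL1, CXCL2, CXCL3, CXCL5 and CXCL6. These promoters are not independent of each other. CXCL1 and CXCL3 were identical at 92.2% of aligned positions of the printed stretch, CXCL1 and CXCL2 at 89.0%, and CXCL5 and CXCL6 at 91.2%, whereas CXCL8 and CXCL1 were identical at 44.6%. A match describes the letters and is not evidence of binding.

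Other motifs were more scattered. The AP-1 sequence TGANTCA was found at bases −137 to −131 of CXCL8 and in no other of the 8 promoters, and 6.57% of all promoters held it. The C/EBP sequence TTGCNNAA occurred in CXCL2 and CCL26 (9.05% of all promoters), and the TATA sequence TATAAA in CXCL8 and CCL20 (10.7% of all promoters).

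**Figure D1:**
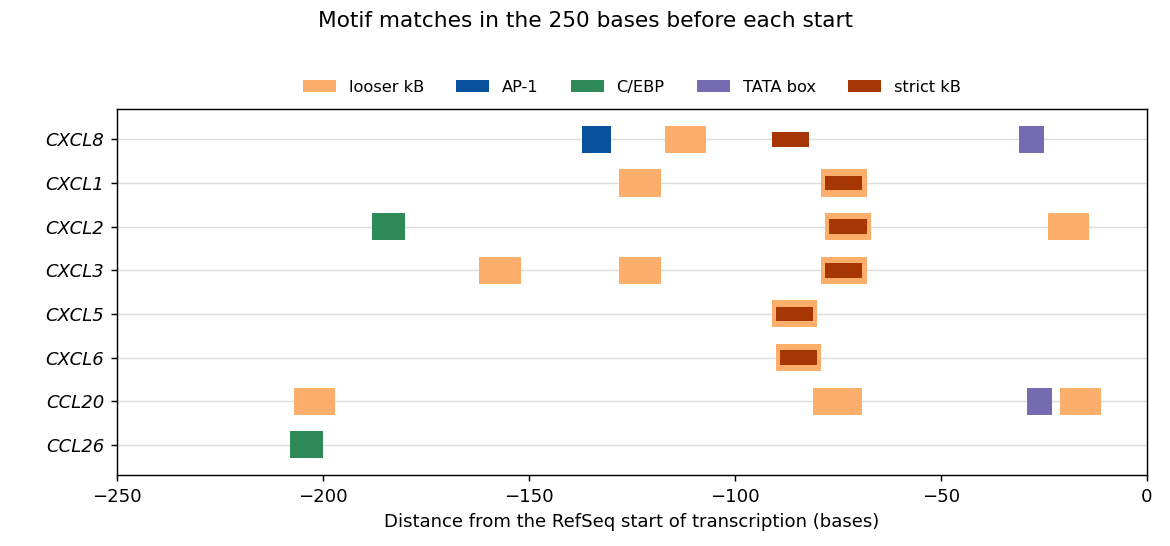
Positions of motif matches in the 250 bases before the RefSeq start (horizontal axis, bases) for the 8 genes with a promoter in the table; each bar is a match on either strand. The strict kB match stands between bases −91 and −69 in all 6 ELR genes and is missing from CCL20 and CCL26.

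CXCL8, which encodes interleukin-8, was the member with the most reads after treatment. It had 112 counts in MDA-MB-231 with DMSO and 415 with MBZ, and 351 counts in SUM159 with DMSO and 16914 with MBZ. The SUM159 library with MBZ stood far above the other 3, and both MBZ libraries stood above the DMSO library of the same line. CXCL8 was 4.47-fold higher with MBZ in MDA-MB-231, with a 95% interval of counting error from 3.62 to 5.57, and 38.7-fold higher in SUM159 (34.8 to 43.1). On the log2 scale these are changes of 2.16 (1.86 to 2.48) and 5.27 (5.12 to 5.43). All intervals here cover counting error alone, not the spread between cultures, and reads made by PCR without molecular identifiers are not independent molecules.

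A higher level in a bulk library may come from more RNA per cell or from more cells that express the gene, and these cannot be told apart. Levels are given in reads per kilobase of exon, scaled for library size (RPKM). The length merges the exons of all annotated transcripts, 2588 bases in CXCL8 against 1642 in its main (canonical) transcript. Comparisons of level between genes depend on this length. CXCL8 was at 1.86 and 8.44 in MDA-MB-231 and at 8.19 and 317 in SUM159. MBZ-treated MDA-MB-231 cells thus had about the level that SUM159 cells had with DMSO alone, and the counting intervals of these 2 libraries overlapped (7.64 to 9.29 against 7.35 to 9.09). Ranked by this level among all genes, CXCL8 went from rank 9643 to 4735 in MDA-MB-231 and from rank 4809 to rank 90 in SUM159. The change in SUM159 exceeded that in MDA-MB-231 by 3.11 on the log2 scale, with a counting interval of 2.76 to 3.46.

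CXCL2 and CXCL3, the close relatives also called GRO-beta and GRO-gamma, were higher with MBZ in both lines. CXCL2 had 34 and 196 counts in MDA-MB-231 and 191 and 3253 in SUM159, DMSO first. It was 6.94-fold higher in MDA-MB-231 (4.82 to 10.3) and 13.7-fold higher in SUM159 (11.8 to 15.9). Of the ELR genes, CXCL2 had the highest fold in MDA-MB-231 and the lowest fold among those compared in SUM159, and its changes differed by 0.98 on the log2 scale (0.36 to 1.55).

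CXCL3 had 22 and 93 counts in MDA-MB-231 and 62 and 1627 in SUM159. It was 5.08-fold higher in MDA-MB-231 (3.18 to 8.54) and 21.0-fold higher in SUM159 (16.4 to 27.6). Like CXCL8 it was therefore higher in both lines and by more in SUM159, with a difference in log2 change of 2.05 (1.21 to 2.84).

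CXCL1, the melanoma growth-stimulating chemokine also called GRO-alpha, did not follow its neighbours in MDA-MB-231. It had 80 counts with DMSO and 78 with MBZ there, and 35 and 952 counts in SUM159. In MDA-MB-231 the scaled ratio was 1.18 (0.851 to 1.63), so a change was not detectable at this depth, whereas in SUM159 CXCL1 was 21.8-fold higher (15.6 to 31.6). The log2 changes differed by 4.21 (3.52 to 4.92), the widest gap among the members compared in both lines. In MDA-MB-231 with DMSO, CXCL1 was the member with the highest level per merged exon length (2.53), and its interval overlapped that of CXCL8.

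CXCL5 and CXCL6, which encode the epithelial-derived ELR chemokines ENA-78 and GCP-2, were nearly absent. CXCL6 had 0 counts in all 4 libraries, and CXCL5 had 1 count in SUM159 with MBZ and 0 in the other libraries. No fold change was computed for either. Their printed promoters hold the same kB sequence as those of CXCL1, CXCL2, CXCL3 and CXCL8, so the motif was present in ELR genes with and without reads. CXCL5 shares 422 exonic bases (17.3%) with a long noncoding RNA on the other strand, and the strand setting of the counting is not given in the sources used here.

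**Figure D2:**
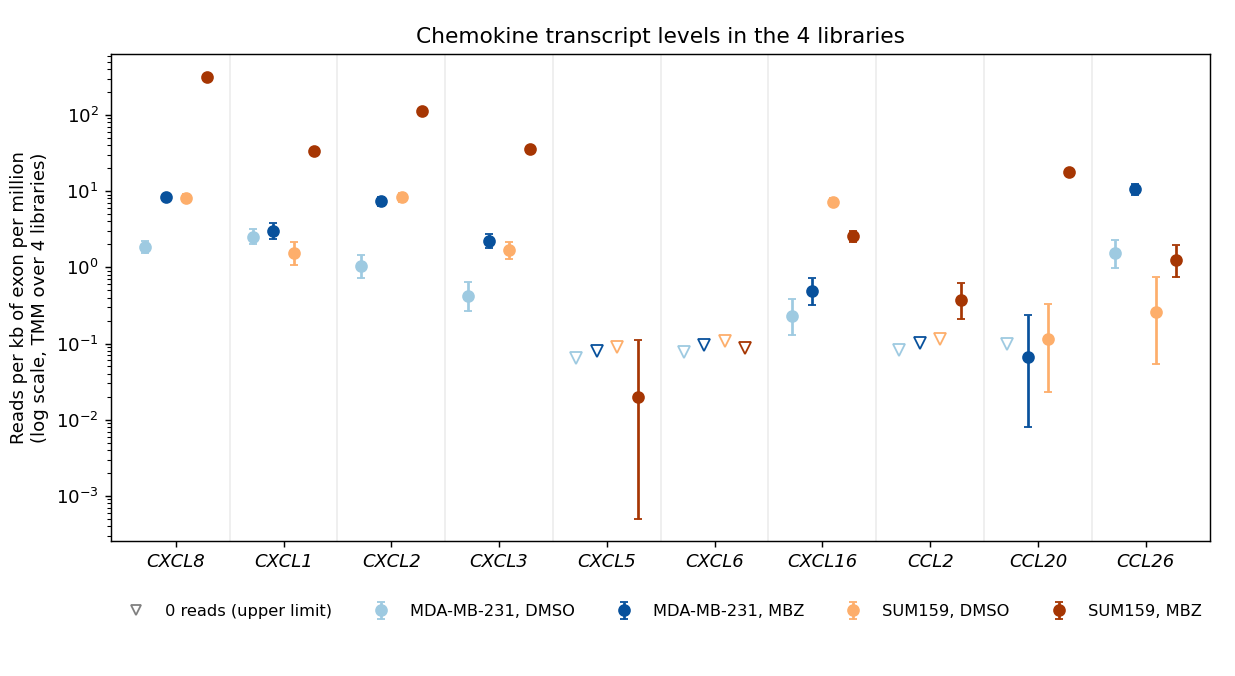
Level of each of the 10 chemokines in each of the 4 libraries, in RPKM on a log axis, with 95% Poisson intervals of counting error; an open triangle is the upper limit where 0 reads were counted. CXCL8 reaches 317 in SUM159 with MBZ and lies between 1.86 and 8.44 in the other 3 libraries.

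The 6 ELR genes together gave 248 reads in MDA-MB-231 with DMSO and 782 with MBZ, and 639 and 22747 in SUM159. Scaled within each line, they went from 10.9 to 41.6 CPM in MDA-MB-231 (3.81-fold, 3.30 to 4.41) and from 37.9 to 1084 CPM in SUM159 (28.6-fold, 26.4 to 31.0). CXCL8 made up 45.2% of these reads in MDA-MB-231 with DMSO (exact Clopper-Pearson interval 38.9 to 51.6) and 53.1% with MBZ (49.5 to 56.6). In SUM159 its share was 54.9% with DMSO (51.0 to 58.8) and 74.4% with MBZ (73.8 to 74.9). The ELR reads of treated SUM159 cells were thus mostly CXCL8, to a larger share than in any of the other 3 libraries.

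The ELR genes occupy one stretch of chromosome 4 (GRCh38, annotation of GENCODE release 44). CXCL8 (ENSG00000169429) lies at chr4:73740519-73743716, CXCL6 (ENSG00000124875) at chr4:73836640-73849064 and CXCL1 (ENSG00000163739) at chr4:73869393-73871308, all on the plus strand. CXCL5 (ENSG00000163735) lies at chr4:73995642-73998677, CXCL3 (ENSG00000163734) at chr4:74036589-74038807 and CXCL2 (ENSG00000081041) at chr4:74097040-74099196, all on the minus strand. Each has 4 exons in its canonical transcript. Position along the stretch did not separate genes with reads from those without: CXCL6 starts 96.1 kb and CXCL1 129 kb from the start of CXCL8, and the former had 0 counts in each library. Between them and beyond, the platelet chemokine genes PF4V1 and PPBP had 0 counts and PF4 had 5, 4, 0 and 0.

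**Figure D3:**
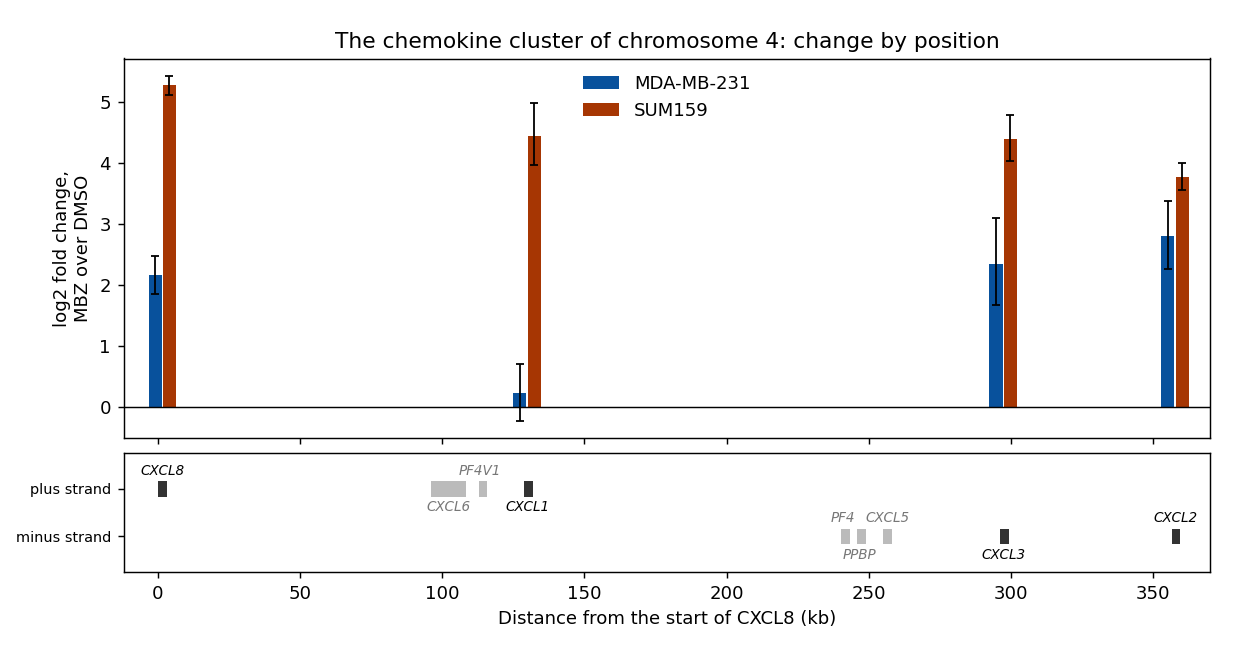
Change with MBZ (log2 fold, bars with 95% intervals of counting error) for genes of the chromosome 4 cluster averaging 10 counts or more, above the protein-coding genes of the cluster by strand and distance from CXCL8 in kb (grey, under that mean in SUM159). CXCL8, CXCL1, CXCL3 and CXCL2 were all higher in SUM159, from 3.77 to 5.27, while the CXCL1 bar of MDA-MB-231 reaches 0.24 with an interval that spans 0.

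CXCL1, CXCL2 and CXCL3 are similar enough that reads could be assigned ambiguously. Of the 50-base windows of their canonical transcripts, 5.33% in CXCL1, 10.1% in CXCL2 and 5.26% in CXCL3 occur in another of these genes. At 100 bases, and at the read length of 150 bases, no window was shared. How the counting treated reads that map to more than 1 gene was not tested.

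CXCL16 is a transmembrane chemokine that is shed by ADAM10 and ADAM17 and binds CXCR6; it lacks the ELR motif. It had 15 and 26 counts in MDA-MB-231 and 336 and 148 in SUM159, DMSO first. In SUM159 it was 2.83-fold lower with MBZ, a log2 change of −1.50 (−1.79 to −1.22), and was the only member compared that was lower there. In MDA-MB-231 it was 2.08-fold higher, with an interval from 1.07 to 4.25 at these low counts. The log2 changes differed by −2.56 (−3.63 to −1.54). CXCL16 (ENSG00000161921, chr17:4733533-4739928, minus strand, 6 exons) shares 76 exonic bases with MED11 and 96 with ZMYND15, both on the other strand, and so 2.72% and 3.44% of its exonic length could hold reads of these genes.

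CCL20 encodes the ligand of CCR6, which draws dendritic cells and Th17 cells. It had 0 and 2 counts in MDA-MB-231 and 3 and 589 in SUM159. In SUM159 the ratio was 152, with a wide counting interval from 53.7 to 767 because the DMSO library held only 3 counts, and CCL20 had the highest fold of the members compared. The fitted value depends on the prior count: its log2 change was 7.25, and 6.63 with a prior count of 2. No fold was computed for MDA-MB-231, where both libraries were at or under 3 counts. CCL20 (ENSG00000115009) lies at chr2:227805739-227817564 on the plus strand and has 4 exons.

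CCL26, or eotaxin-3, is a CCR3 ligand that attracts eosinophils. It had 25 and 142 counts in MDA-MB-231 and 3 and 18 in SUM159. It was 6.83-fold higher in MDA-MB-231 (4.46 to 11.0), and the ratio in SUM159 was 4.68 (1.41 to 25.5). Of the 4 chemokines outside the ELR group, CCL26 had more reads in MDA-MB-231 than in SUM159, the reverse of CXCL16 and CCL20, and its changes differed by −0.54 with an interval (−2.44 to 2.0) that allows either sign. With MBZ it was the highest member per merged exon length in MDA-MB-231 (10.6), its interval overlapping that of CXCL8. CCL26 (ENSG00000006606) lies at chr7:75769533-75789896 on the minus strand and has 3 exons.

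CCL2, or MCP-1, attracts monocytes through CCR2. It had 0 counts in MDA-MB-231 with and without MBZ, 0 in SUM159 with DMSO and 15 in SUM159 with MBZ. The last value is at least 4.02-fold higher than the 3 counts that a count of 0 allows in the DMSO library, a bound that leaves out the counting error of the 15 reads. The exact counting interval of the ratio begins at 2.88. Such appearances were more frequent with MBZ across the genome: 112 genes with 0 counts in SUM159 with DMSO had at least 15 with MBZ, and 14 genes the reverse. In MDA-MB-231 the corresponding numbers were 31 and 3. The part of the wider detection of genes with MBZ in the CCL2 and CCL20 values was not tested. CCL2 (ENSG00000108691) lies at chr17:34255274-34257208 on the plus strand and has 3 exons.

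A gene was compared within a line where its 2 libraries averaged at least 10 counts. In MDA-MB-231, 6 of the 10 chemokines were compared. Of these 5 were at least 1.5-fold higher (18.3% of all 15142 genes compared), 0 were at least 1.5-fold lower (15.8% of all genes) and CXCL1 was neither. In SUM159, 7 were compared. Of these 6 were at least 1.5-fold higher (21.5% of all 15674 genes) and 1, CXCL16, was at least 1.5-fold lower (21.7% of all genes). The members were selected with these values in view, so nothing is read from these counts, and CCL20 and CCL26 passed the minimum in SUM159 only through the MBZ library. The median log2 change over the compared members was 2.25 in MDA-MB-231 and 4.40 in SUM159, beside −0.02 and −0.03 over all genes compared.

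Ranked from the highest fold over all genes compared in SUM159, CCL20 held rank 44, CXCL8 58, CXCL1 88, CXCL3 92, CXCL2 158 and CCL26 579. In MDA-MB-231, CXCL2 held rank 136, CCL26 143, CXCL3 216, CXCL8 277, CXCL16 1272 and CXCL1 5124. CXCL2 was thus in about the same place in both lines, whereas CXCL1 was near the top in one line and in the upper middle in the other.

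**Figure D4:**
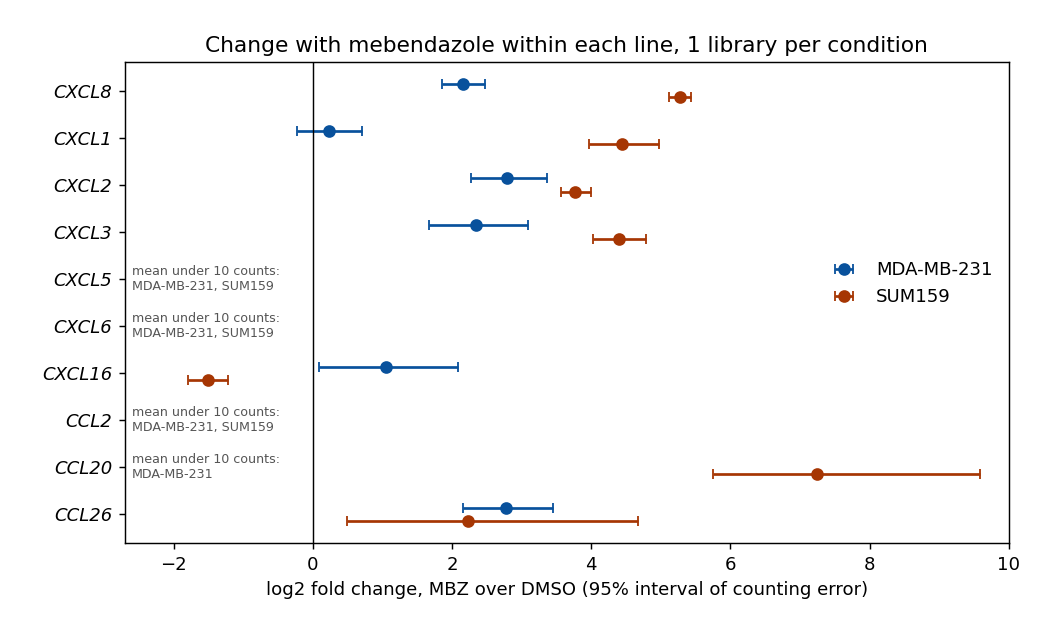
Log2 fold change of MBZ over DMSO in each line for the members averaging 10 counts or more, with 95% intervals of counting error from 1 library per condition. SUM159 lies to the right of MDA-MB-231 for CXCL8, CXCL1, CXCL2 and CXCL3, and CXCL16 lies at −1.50 in SUM159 and at 1.06 in MDA-MB-231.

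With DMSO alone the lines already differed in these genes. SUM159 held more CXCL16 than MDA-MB-231 by 31.1-fold (18.8 to 56.8), more CXCL2 by 7.85-fold (5.45 to 11.7), more CXCL8 by 4.39-fold (3.55 to 5.49) and more CXCL3 by 3.94-fold (2.40 to 6.76). CXCL1 was 1.63-fold lower in SUM159, a log2 ratio of −0.70 (−1.32 to −0.11), and the log2 ratio of CCL26 was −2.53 (−4.94 to −0.86) with 3 counts in SUM159. Of the 6 members compared, 4 were thus at least 1.5-fold higher in SUM159 (31.0% of all 15559 genes) and 2 at least 1.5-fold lower (30.6%), of which CCL26 passed the minimum only through MDA-MB-231, where it is high. Differences of this size between the lines were common, and they share the DMSO libraries with the changes given above.

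The order and overlaps below rest on merged exon lengths, which exceed those of the canonical transcripts unevenly. CXCL3 has 2219 against 1075 bases and CXCL1 1362 against 1174. Neither order nor overlaps were computed with canonical lengths. The order of the members by level per length also differed between the libraries. In MDA-MB-231 with DMSO it ran from CXCL1 (2.53) through CXCL8 (1.86), CCL26 (1.53) and CXCL2 (1.05) to CXCL3 (0.427) and CXCL16 (0.231), and among these only CXCL2 and CXCL3 were neighbours whose intervals did not overlap. With MBZ it ran from CCL26 (10.6) through CXCL8 (8.44) and CXCL2 (7.38), whose neighbours overlapped, to CXCL1 (3.01) and CXCL3 (2.20), which overlapped, and CXCL16 (0.490). The 3 highest genes with MBZ were thus separated from CXCL1, the highest with DMSO.

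In SUM159 with DMSO, CXCL2 (8.25), CXCL8 (8.19) and CXCL16 (7.26) led with overlapping intervals, followed by CXCL3 (1.69) and CXCL1 (1.55), which also overlapped. With MBZ the order was CXCL8 (317), CXCL2 (113), CXCL3 (35.6), CXCL1 (33.9), CCL20 (17.9), CXCL16 (2.57), CCL26 (1.24) and CCL2 (0.376). At merged exon length only CXCL3 and CXCL1 overlapped among these. At merged exon length, CXCL16 had been level with CXCL8 with DMSO and was far under it with MBZ. Whether they overlap with DMSO at canonical length (2324 bases in CXCL16, 1642 in CXCL8) was not tested.

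Genes with the pattern most like that of CXCL8 were sought by distance of centred log2 CPM over the 4 libraries among the 11136 genes averaging 100 counts or more. The nearest 5 were IL1A, MMP1, TFPI2, DNER and IL1B, at distances from 1.28 to 1.89. IL1A, which encodes the alarm cytokine interleukin-1 alpha, had 8 and 28 counts in MDA-MB-231 and 33 and 539 in SUM159, and MMP1, the interstitial collagenase, had 42, 115, 312 and 12005 in the same order. Nearest to the mean profile of CXCL1, CXCL2, CXCL3 and CXCL8 were IL1A (0.637), TFPI2 (0.900), DNER, GOLGA7B and VGF (1.61). IL1A, IL1B and GOLGA7B averaged 23, 40 and 48.7 counts over the other 3 libraries and so passed the minimum only through SUM159 with MBZ, the library in which CXCL8 was highest. With 4 libraries, likeness is a description of levels.

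Reads of the signalling receptors of these chemokines were few in both lines. CXCR2 had 0 counts in both MDA-MB-231 libraries and 1 and 3 in SUM159, CXCR1 had 3 counts in MDA-MB-231 with MBZ and 0 elsewhere, and CCR6 had 0 throughout. CCR2 had at most 1 count, CCR3 at most 9 and CXCR6 from 7 to 11. Of the 23 receptors in the list, 4 were compared in MDA-MB-231, of which 0 were higher and 1 lower (1 and 0 with total-count scaling), and 6 in SUM159, of which 2 were higher and 3 lower. Beside these stand 18.3% and 15.8% of all genes in MDA-MB-231 and 21.5% and 21.7% in SUM159. In SUM159 both higher genes passed the minimum only through the MBZ library and 1 lower gene only through the DMSO library, so the filter fixed their direction. The gene of the scavenging receptor ACKR1, which binds several of these chemokines without signalling, had 0 and 1 counts in MDA-MB-231 and 752 and 59 in SUM159, a log2 change of −3.99.

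Other chemokines did not share one direction. Their counts stand beside 18.3% of all genes higher and 15.8% lower in MDA-MB-231, and 21.5% and 21.7% in SUM159. Of 23 other CC chemokines, 1 was higher and 2 lower among 3 compared in MDA-MB-231 (1 and 1 with total-count scaling), and 3 were higher and 1 lower among 4 compared in SUM159. The 3 higher genes passed the minimum in SUM159 only through the MBZ library, and 1 of the lower genes in MDA-MB-231 only through the DMSO library, which fixed their direction. CCL5, a T cell attractant, had 11 and 42 counts in MDA-MB-231 and 2035 and 884 in SUM159, and so was higher in one line (log2 change 2.19) and lower in the other (−1.52), as CXCL16 was. Of 13 other CXC, CX3C and XC chemokines, 1 was lower of 1 compared in MDA-MB-231 and 1 higher of 3 compared in SUM159, which was CX3CL1 in each case (24, 10, 67 and 232 counts).

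Among 16 inducers of these chemokines and cytokines induced with them, 7 were higher and 0 lower of 11 compared in MDA-MB-231 (8 and 0 with total-count scaling), beside 18.3% and 15.8% of all genes. In SUM159, 11 were higher and 1 lower of 14 compared (12 and 0 with that scaling), beside 21.5% and 21.7% of all genes. Their median log2 changes were 1.07 and 4.09, the latter 3.86 with the gene at 0 counts taken at its bound against 3 counts. Of the genes compared, 2 in MDA-MB-231 and 4 in SUM159 passed the minimum only through the MBZ library. IL1B, interleukin-1 beta and an inducer of CXCL8, had 17 and 16 counts in MDA-MB-231 and 87 and 2183 in SUM159, and CSF2, the GM-CSF gene, 158, 144, 37 and 1432. Both resembled CXCL1 in that no change past 1.5-fold was seen in MDA-MB-231. TNF had 0 and 1 counts in MDA-MB-231 and 30 and 50 in SUM159. IL24 had 28, 1421, 29 and 2856 counts, and IL6 44, 953, 682 and 3739.

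The lines can stand in for replicates only for a change shared by both. A fit over the 4 libraries with line and treatment (edgeR's quasi-likelihood test) called 1 of 16100 genes (0.00621%), which was IL24 at a log2 change of 6.16 (SE 0.36, adjusted p = 0.0119). No gene was lower at this threshold by this test, with 629 genes higher and 521 lower at an unadjusted p under 0.05. No other gene of the lists passed, and IL1A (adjusted p = 0.441), IL6 (0.422), ATF3 (0.327) and BIRC3 (0.327) were higher in both lines without passing. These 4 genes passed with DESeq2 and with every gene of at least 1 count kept.

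Of 16 NF-kB genes, 7 were higher in MDA-MB-231 with 1 lower, and 5 were higher in SUM159 with 2 lower. The shares of all genes beside these counts are 18.3% and 15.8% for MDA-MB-231, and 21.5% and 21.7% for SUM159. The median log2 changes of the list were 0.40 and 0.13. With total-count scaling its counts were 10 and 1, and 7 and 0. The feedback genes TNFAIP3 (2.33 in MDA-MB-231, 1.10 in SUM159) and BIRC3 (2.41 and 1.67) were higher in both lines. The inhibitor gene NFKBIA (−0.10 and −0.14) and the subunit genes RELA (−0.38 and −0.33) and NFKB1 (−0.22 and −0.53) stayed under the 1.5-fold limit. BCL3 was lower in both lines (−0.93 and −0.62), though in MDA-MB-231 alone with total-count scaling. RELB was higher in MDA-MB-231 (1.34) and lower in SUM159 (−0.88). Of 12 AP-1 and C/EBP factors, 6 were higher in MDA-MB-231 with 1 lower, and 6 in SUM159 with 2 lower, beside the same shares of all genes. ATF3 (4.11 and 2.35) and FOSB (3.91 and 2.55) were higher in both lines. CEBPD (−0.30 and −1.39) was lower in SUM159. FOS was higher in MDA-MB-231 alone (1.72 and 0.11) and FOSL1 in SUM159 alone (−0.26 and 2.61).

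Of the receptors whose signals induce chemokine transcription, 11 of 17 compared in SUM159 were lower and 2 higher (9 and 3 with total-count scaling), beside 21.7% and 21.5% of all genes. In MDA-MB-231, 3 were lower and 2 higher of 16 compared (2 and 5 with that scaling), beside 15.8% and 18.3% of all genes. TLR4, the lipopolysaccharide receptor, had 995 and 1081 counts in MDA-MB-231 and 1092 and 376 in SUM159. Among 9 regulators of AU-rich messages, 3 were higher in MDA-MB-231 with 4 lower, and 1 was higher in SUM159 with 2 lower (5 and 2, 1 and 1 with total-count scaling), beside the same shares of all genes. The log2 change of ZFP36L2, which promotes decay of such messages, was 0.67 in MDA-MB-231 and −1.51 in SUM159. Of 11 proteases that shed or trim chemokines, 2 were higher and 0 lower of 5 compared in MDA-MB-231 (3 and 0 with total-count scaling) and 2 higher and 3 lower of 8 in SUM159 (3 and 2), again beside those shares. The filter fixed the direction of 1 higher gene in each line and of 1 lower gene in SUM159, which passed through 1 library alone. ADAM17, which sheds CXCL16, had 806, 905, 956 and 745 counts. Of 8 genes of the glucocorticoid response, the receptor gene NR3C1 among them (hydrocortisone is in the SUM159 medium), 5 were higher in MDA-MB-231 with 1 lower, and 2 were higher in SUM159 with 4 lower (6 and 0, 3 and 2 with total-count scaling). The shares of all genes given above stand beside these counts too.

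**Figure D5:**
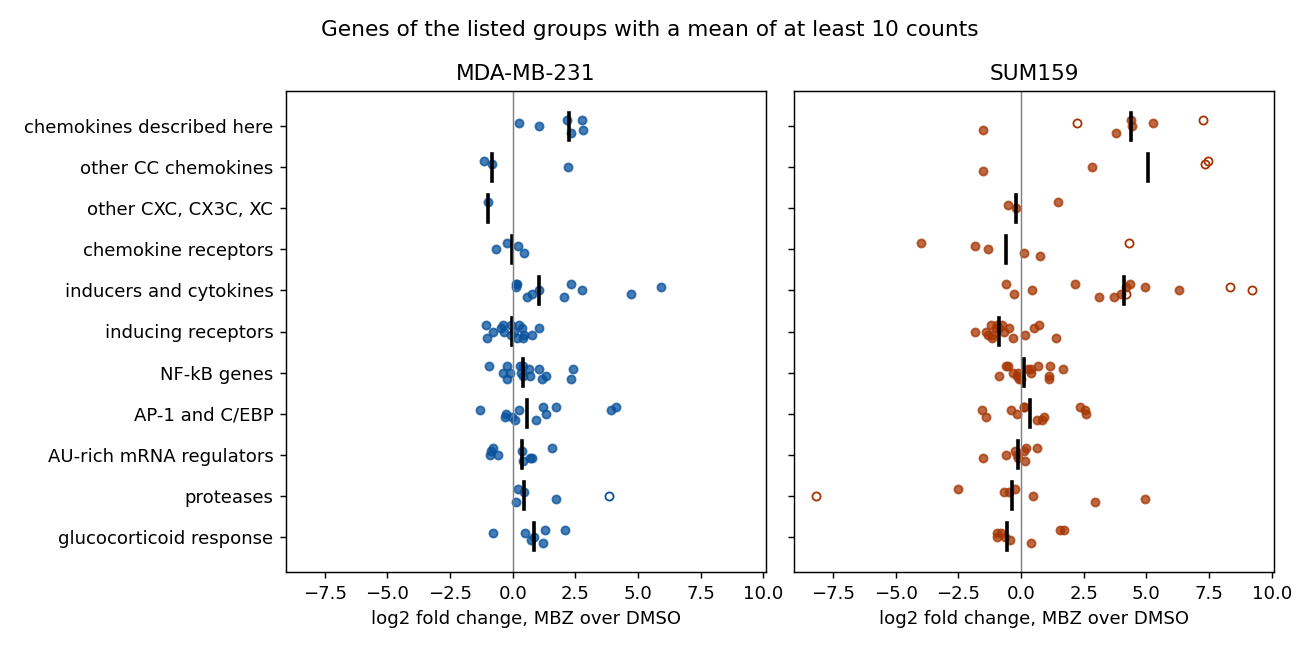
Log2 fold change of MBZ over DMSO for each gene of the listed groups averaging 10 counts or more, by line; black bars are medians and open circles genes with 3 or fewer counts in a library, whose fitted value depends on the prior count. The chemokines described here and the inducers and cytokines lie mostly above 0 in SUM159, with medians of 4.40 and 4.09, while the median of the inducing receptors is −0.89. The first 2 medians include 2 and 4 genes that passed the minimum only through the MBZ library.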

How the data were processed

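Total RNA was enriched for poly-A mRNA and sequenced by the authors as paired-end reads of 150 bases. The authors mapped them to GRCh38 (STAR 2.5, per the submitters' processing notes) and counted reads per gene (HTSeq 0.6.1, union mode). The values they deposited are whole-number counts, not normalized. The annotation release and strand setting are not given in the sources used here.

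Symbols were matched by Ensembl identifier for 58207 of 58735 genes (528 unmatched, 99.5% to 99.9% of the counts matched). Fold changes were computed in edgeR 4.0.16 (R 4.3.3) from log2 CPM (prior count 0.125). TMM factors were taken within each line, and over all 4 libraries for levels per length and for the DMSO libraries. The 95% intervals are exact (Clopper-Pearson) and rest on how a gene's reads divide between the libraries. Differences between the changes of the lines have exact conditional intervals on the reads. Genes averaging 10 counts or more in a line were compared, at 1.5-fold. A fold against a library with 0 counts is printed as a bound against 3 counts; list medians use the value with the prior count unless the bound is named. The shared change was tested with glmQLFTest (filterByExpr, line and treatment, Benjamini-Hochberg adjusted p under 0.05), whose common biological coefficient of variation was 0.323; DESeq2 1.42.0 was an alternative. The scripts were tested on simulated data.

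The members and the gene lists were chosen with earlier results of these data known. The lists were other CC chemokines, other CXC, CX3C and XC chemokines, chemokine receptors, inducers and cytokines, NF-kB genes, AP-1 and C/EBP factors, inducing receptors, regulators of AU-rich mRNA, proteases and glucocorticoid response genes. Named from them were receptors or ligands of a member and the 3 highest and 3 lowest of a list in either line, and, from all genes, the 5 nearest to CXCL8 and to the mean of 4 ELR genes. Fixed marker genes, listed genes with opposite changes in the 2 lines, the genes of the chromosome 4 cluster and NFKBIA were named as well. Gene positions are from GENCODE release 44 and promoters from RefSeq on GRCh38.p14, with 250 bases searched. Protein sequences were not analysed here.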

Additional observations from a re-analysis of the deposited data

Results flagged for a closer look

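Of 101 listed or member genes compared in both lines, those whose counting intervals lay on opposite sides of 0 in the 2 lines were singled out. There were 23, of which 6 lost the opposite signs under at least 1 other scaling, leaving 17 (16.8%). Over all 13733 genes compared in both lines the same rule left 2142 (15.6%), so the share among the listed genes is near that of all genes. With 1 library per condition the difference was not tested. The change in SUM159 minus that in MDA-MB-231, on the log2 scale, was −2.56 for CXCL16 and −3.71 for CCL5. Among factors and regulators it was −2.22 for RELB, −0.64 for JUND, −2.18 for ZFP36L2, 0.956 for HNRNPD and 0.982 for ELAVL1. Among receptors, cytokines and proteases it was −2.25 for TLR4, −1.95 for IL1R1, −1.76 for IL6ST, −0.732 for CSF1 and −1.12 for ADAM17. It was −1.15 for NR3C1, −1.29 for TSC22D3 and −1.51 for KLF9 of the glucocorticoid list, and −4.68 and −3.94 for the markers KRT17 and PTPRC. Of the 17, 15 were higher in MDA-MB-231 and lower in SUM159, and HNRNPD and ELAVL1 were the reverse; over all genes these were 1013 and 1129.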

How the results depend on the processing

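No paired analysis was possible because the labels give each condition 1 sample, all with the same replicate number; the shared test has the line as its block. Scaling by total counts shifted the median log2 change up, by 0.27 in MDA-MB-231 and 0.30 in SUM159. It moved the median of the members in MDA-MB-231 to 2.52, CXCL8 in SUM159 to 5.58 (from 5.27), CXCL2 to 4.07 and CXCL16 to −1.20. With it 4408 genes of MDA-MB-231 were higher and 1146 lower (2765 and 2386 with TMM), and 5135 and 2004 of SUM159 (3376 and 3403). With every gene of at least 1 count these were 9089 and 5693, and 11750 and 6844. With a mean of at least 100 counts, 1114 genes were higher in MDA-MB-231, 1422 were higher and 2250 lower in SUM159, and 2 members rather than 5 were higher in MDA-MB-231, since fewer genes were compared. At 2-fold, 1370 of MDA-MB-231 were higher and 779 lower, and 1996 and 1676 of SUM159. The shared test called 153 higher and 145 lower with every gene of at least 1 count, 45 and 55 with DESeq2 (17375 genes without an adjusted p left out), and 0 higher without the line in the model. The cause of these differences was not tested. Of the listed genes outside the members, 17 passed with every gene and 9 with DESeq2, IL24 among them each time. No member changed direction under these settings, but with total-count scaling the balance of higher and lower genes turned in some lists, as given beside their counts. Depth limits the members with under 30 counts in a DMSO library: CCL2, CCL20, CCL26, CXCL3, CXCL5, CXCL6 and CXCL16 in at least 1 line.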
